A study of Mus musculus with 39 samples.

Results

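Transforming growth factor beta (TGF-beta) signalling was followed through 10 of its core genes in tumour cells sorted from mouse pancreatic tumours. The genes were the 3 ligands Tgfb1, Tgfb2 and Tgfb3, the 3 receptors Tgfbr1, Tgfbr2 and Tgfbr3, and the 4 Smads Smad2, Smad3, Smad4 and Smad7. They were chosen by symbol from the 39017 genes of the deposited count table, and each symbol had 1 row. RNA sequencing had been run on cells, named yfp in the titles, that were sorted from tumours grown under the skin of C57BL/6 mice for 3 weeks without treatment. Each tumour came from a clone of pancreatic tumour cells, and a title gives the parent line before the letter c, the clone after it and then a tumour number. The labels put 2 clones (4 libraries) in an intermediate T cell phenotype, 6 clones (14 libraries) in T cell high and 9 clones (18 libraries) in T cell low. Another 3 clones with 1 library each carried no class. A class thus describes a clone, every tumour was an implant of 1 clone, and the sources used here do not give the genotype of the clones or the sex and age of the hosts. Several clones share a parent line, so clones may not be fully independent replicates.

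TGF-beta ligands are secreted in a latent complex and, once released, bring the type II receptor (Tgfbr2) and the type I receptor (Tgfbr1) together; the coreceptor Tgfbr3, also called betaglycan, presents ligand and is needed most for the second ligand, TGF-beta 2. The type I receptor phosphorylates Smad2 and Smad3, which enter the nucleus with Smad4, and Smad7 is an inhibitor that the pathway itself induces. In pancreatic cancer the pathway is known both as a brake on epithelial growth, through SMAD4, and as a driver of epithelial-mesenchymal transition and of an excluded or suppressed T cell response.

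The promoters of Tgfb1, Smad3 and Tgfb2 are shown because the first pair had parallel levels over the clones and the third, the ligand of lowest level, had the widest range of the ligands. They are RefSeq windows of 300 bases on GRCm38.p6, 250 before the gene start and 50 after it, at chr7:25686752-25687051 on the plus strand, chr9:63757945-63758244 on the minus strand and chr1:186705940-186706239 on the minus strand. Capitals mark GGGCGG (the core of Sp1 boxes), CAGAC (a Smad-binding sequence) and TATAAA, each on either strand.
Tgfb1: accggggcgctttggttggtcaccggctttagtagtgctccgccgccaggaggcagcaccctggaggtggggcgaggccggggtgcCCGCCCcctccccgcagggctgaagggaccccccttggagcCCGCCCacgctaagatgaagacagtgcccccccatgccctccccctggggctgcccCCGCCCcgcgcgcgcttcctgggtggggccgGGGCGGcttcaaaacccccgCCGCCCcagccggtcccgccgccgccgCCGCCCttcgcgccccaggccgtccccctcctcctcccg
Smad3: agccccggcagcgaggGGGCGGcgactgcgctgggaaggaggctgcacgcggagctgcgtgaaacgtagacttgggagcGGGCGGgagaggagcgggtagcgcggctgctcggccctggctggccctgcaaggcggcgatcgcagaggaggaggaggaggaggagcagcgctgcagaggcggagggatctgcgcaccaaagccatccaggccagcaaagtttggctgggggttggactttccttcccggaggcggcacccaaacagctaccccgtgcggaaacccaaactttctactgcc
Tgfb2: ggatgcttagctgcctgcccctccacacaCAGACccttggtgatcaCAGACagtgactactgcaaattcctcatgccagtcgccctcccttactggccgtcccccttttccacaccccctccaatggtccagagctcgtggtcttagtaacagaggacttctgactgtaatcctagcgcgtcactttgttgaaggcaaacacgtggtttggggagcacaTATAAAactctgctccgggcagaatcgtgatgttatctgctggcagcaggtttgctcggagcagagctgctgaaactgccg
The Tgfb1 window held 6 GGGCGG matches and the Smad3 window 2, whereas the Tgfb2 window held none of these but 2 CAGAC matches and 1 TATAAA match. The AP-1 sequence TGANTCA was found in none of the 3 windows. None of these motifs is rare: of 32851 mouse windows of the same length, 35.7% held GGGCGG, 49.6% CAGAC, 13.6% TATAAA and 7.81% TGANTCA. Windows were found for 5 of the 10 genes. Of the others with a window, Tgfbr2 held 1 CAGAC match and no GGGCGG, and of the 2 Tgfbr1 windows 1 held 2 GGGCGG matches and the other 1 CAGAC match.

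In GENCODE M21 on GRCm38 the ligand genes lie on chromosome 7 (Tgfb1, 25687002 to 25705077), chromosome 1 (Tgfb2, 186622792 to 186705989) and chromosome 12 (Tgfb3, 86056745 to 86079041). The receptor genes lie on chromosome 4 (Tgfbr1, 47353222 to 47414931), chromosome 9 (Tgfbr2, 116084293 to 116175360) and chromosome 5 (Tgfbr3, 107106570 to 107289629), and Smad3 lies on chromosome 9 (63646767 to 63757994). Smad2, Smad4 and Smad7 lie on chromosome 18. All are protein-coding, and counts were taken over their exons. Antisense or unclassified genes share 2.14% of the exon bases of Tgfb2, 7.60% and 4.82% of those of Tgfb3 and, on the same strand, 4.54% of those of Tgfbr3, so a small part of these counts could belong to the overlapping gene.

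Libraries held 7638130 to 103794674 counts. They came in 2 kinds that the labels do not name. In 20 libraries of 17 clones the summed level of the heart muscle genes Myh6, Myh7, Myl2 and Mb was under 10 CPM, a count scaled to a common library total; these are called heart-free. The other 19 libraries, of 18 clones, held 152 to 4893 CPM of these transcripts together with 496 to 15170 CPM of the liver transcripts Alb, Fga, Fgb, Ahsg, Mat1a and Cps1, against at most 262 CPM of liver transcripts in heart-free libraries. Of these heart-bearing libraries 18 carry tumour number 1 and 1 carries tumour number 2, whereas 1 heart-free library carries number 1. Tumour number and heart transcripts can therefore hardly be told apart. The epithelial markers were Krt8, Krt18, Krt19, Epcam, Cdh1 and Krt7. They summed to 3321 to 10629 CPM in heart-bearing and to 4577 to 13212 CPM in heart-free libraries. Epithelial transcripts were thus present in all, and whether they came from the labelled tumour cells was not tested. All levels other than the heart sums, which are taken on plain library totals, are CPM scaled with TMM factors. They are given by clone and rest on heart-free libraries unless stated.

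Among the ligands Tgfb1 had the highest level per length of transcript and Tgfb2 the lowest. Over the 16 clones that have a class and heart-free libraries the CPM per kilobase of exon was 34.5 ± 15.8 for Tgfb1, 18.1 ± 8.20 for Tgfb3 and 1.18 ± 1.10 for Tgfb2 (SD, n = 16). Ranges and orders also take in the unclassed clone yfp_7062c3, which makes 17 clones. Tgfb2 was the lowest ligand in 17 of 17 clones, and Tgfb1 lay above Tgfb3 in 15 of 17. Tgfb1 spanned 48.5 CPM in the low clone yfp_6421c2 to 381 CPM in the unclassed clone yfp_7062c3, a 7.86-fold range. Tgfb3 spanned 28.6 CPM in yfp_6694c2 to 131 CPM in yfp_6419c1, both low clones. Tgfb2 spanned 1.22 CPM in yfp_7062c3 to 22.9 CPM in yfp_6419c4, an 18.8-fold range. Tgfb2 stood above 10 CPM in 4 clones, the low clones yfp_6419c4, yfp_6419c5 (16.1 CPM) and yfp_6419c1 (12.2 CPM) and the high clone yfp_6555c3 (15.5 CPM). The first 3 share a parent line. The fibroblast markers Col1a1, Col1a2, Col3a1, Dcn, Lum, Pdgfra, Pdgfrb and Postn summed to 6229, 2758, 1144 and 17915 CPM in the heart-free libraries of yfp_6419c4, yfp_6419c5, yfp_6419c1 and yfp_6555c3, against a median of 600 CPM over the 20 heart-free libraries. The part of these transcripts in the Tgfb2 level was not tested, and more cells of a type and more RNA per cell cannot be told apart in these bulk libraries.

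Both signalling receptors were readily measured and the coreceptor was close to the lower end of detection. The level per kilobase was 16.03 ± 7.17 CPM for Tgfbr1, 13.97 ± 4.54 CPM for Tgfbr2 and 0.478 ± 0.795 CPM for Tgfbr3 (SD, n = 16). Tgfbr3 was the lowest receptor in 17 of 17 clones. Tgfbr2 lay above Tgfbr1 in 8 of 17 clones, so these neighbours had no fixed order, and their ratio per length ran from 0.299 to 2.33 with a median of 0.923. Tgfbr1 spanned 50.4 CPM in yfp_6421c2 to 189 CPM in yfp_6419c1, and Tgfbr2 spanned 63.0 CPM in yfp_7062c3 to 186 CPM in the intermediate clone yfp_7160c5. Tgfbr3 spanned 0.240 CPM in the high clone yfp_6620c1 to 21.4 CPM in the high clone yfp_6555c3, an 89.1-fold range, but the next highest clones, yfp_6419c4 and yfp_6419c1, had 6.75 and 5.78 CPM. The yfp_6555c3 library stood apart also in endothelial markers (Pecam1, Cdh5, Plvap, Kdr, Tie1 and Emcn), which summed to 186 CPM there and to at most 34.9 CPM in the other heart-free libraries. The Tgfb2 and Tgfbr3 results between classes and their correlations are given with and without it.

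Smad3 and Smad4 had the highest levels per length of all 10 genes. Their CPM per kilobase was 43.5 ± 17.7 for Smad3 and 41.3 ± 6.83 for Smad4 (SD, n = 16), and Smad3 lay above Smad4 in 9 of 17 clones, so that neither was consistently the higher. Smad7 followed with 23.7 ± 7.89 and Smad2 with 8.51 ± 1.45 CPM per kilobase. Smad2, the partner of Smad3 as a receptor substrate, was the lowest Smad in 17 of 17 clones, and the ratio of Smad3 to Smad2 per length ran from 2.45 to 10.9 with a median of 4.91. Smad3 spanned 109 CPM in yfp_6421c2 to 467 CPM in yfp_7062c3. Smad7, the inhibitor, spanned 65.8 CPM in yfp_6421c2 to 192 CPM in yfp_6694c2. Smad2 and Smad4 hardly varied, from 62.0 to 106 CPM and from 109 to 208 CPM, both lowest in yfp_6499c4 and highest in yfp_6694c2. Over the 15 clones with both kinds of library, the SD of log2 CPM was 0.24 for each, more than that of 8.48% and 8.41% of the genes measured, whereas Tgfbr3 (1.48) and Tgfb2 (1.07) exceeded 90.8% and 82.2% of genes.

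**Figure D1:**
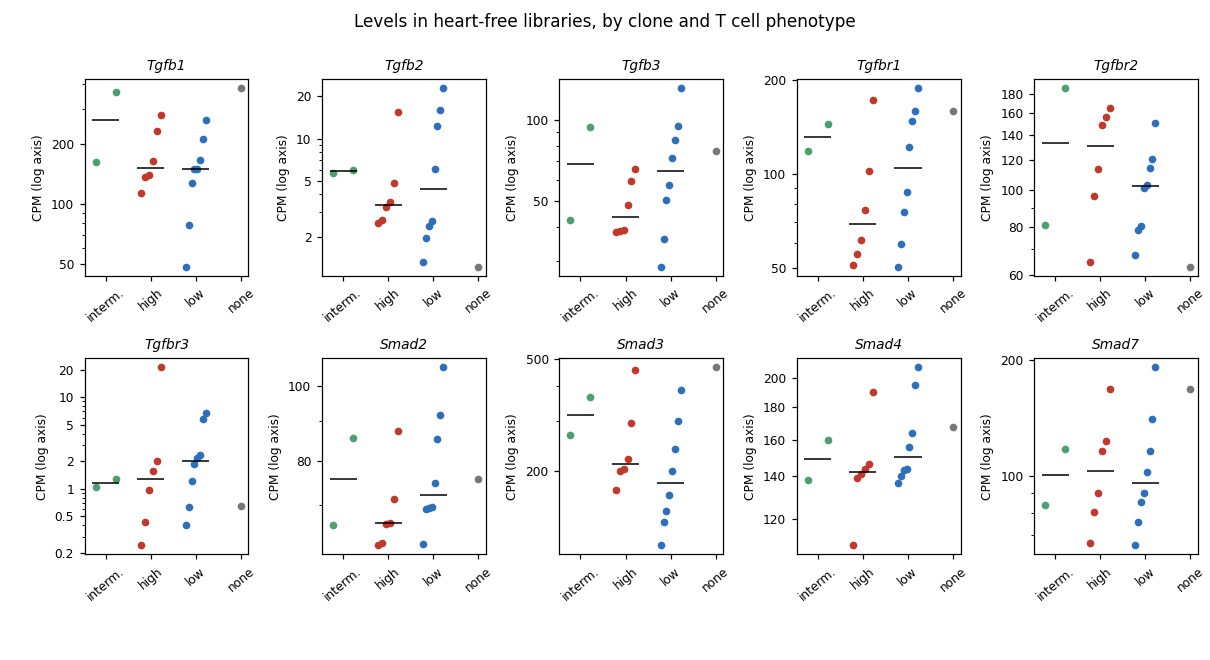
Level of each gene in heart-free libraries (CPM, log axis), 1 point a clone, for 2 intermediate, 6 high and 8 low clones and the 1 unclassed clone with such a library; horizontal lines are medians. The classes overlap for every gene, and the widest ranges are those of Tgfbr3 (0.240 to 21.4 CPM) and Tgfb2 (1.22 to 22.9 CPM).

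Some pairs of the genes had parallel levels over the clones, and others had opposed ones. As a description over 17 heart-free clones, which share depth, scaling and parent lines, Pearson's r of log2 CPM was 0.85 for Smad2 with Smad4, 0.78 for Tgfb1 with Smad3, 0.76 for Tgfbr1 with Smad7, 0.73 for Tgfb2 with Tgfbr3, 0.67 for Smad3 with Smad7 and 0.63 for Tgfb1 with Smad7. Without yfp_6555c3 it was 0.69 for Tgfb2 with Tgfbr3 over 16 clones. The pairs given are those of highest r among the members. The lowest r were all of Tgfbr2, at -0.57 with Smad4, -0.54 with Smad7, -0.49 with Smad3, -0.48 with Smad2 and -0.44 with Tgfb1. Clones yfp_7062c3, yfp_6556c4, yfp_6422c5 and yfp_6694c2 headed the order for both Tgfb1 (381, 280, 364 and 264 CPM) and Smad3 (467, 457, 365 and 386 CPM). Clone yfp_6421c2 was lowest for both, at 48.5 CPM of Tgfb1 and 109 CPM of Smad3.

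The genes most like each member over the same clones were taken among 10638 genes averaging 5 CPM or more. For Tgfb1 these were Anxa1 (r = 0.93), which encodes annexin A1, Fxyd5 (0.92), a regulator of the sodium pump, and Mex3b (0.88). For Smad3 they were Pdlim7 (0.94), an actin-associated PDZ and LIM protein, Spry2 (0.93), a feedback inhibitor of receptor tyrosine kinase signalling, and Bnip2 (0.92). Tgfbr2 varied most like Kif12 (0.92), Arrdc1 (0.88) and Scnn1a (0.88), a subunit of the epithelial sodium channel. Tgfbr1 varied like Tns1, Fmnl3 and Nt5e (0.85, 0.84 and 0.84), and Smad7 like Nfatc1, Fmnl3 and Myof (0.90, 0.90 and 0.88). Tgfb2 varied like Fzd1, Eln and Col5a1 (0.86, 0.83 and 0.82) and Tgfbr3 like Col15a1, Sparc and Col12a1 (0.84, 0.83 and 0.82), of which Eln, Sparc and the collagens encode extracellular matrix proteins. Without yfp_6555c3 these were 0.85, 0.82 and 0.79 for Tgfb2 and 0.77, 0.74 and 0.69 for Tgfbr3. The genes nearest to Smad2 were Smad4, Rbm27 and Afg3l2 (0.85, 0.85 and 0.84). Those nearest to Smad4 were Rbm27, Ss18 and Cep120 (0.88, 0.87 and 0.85). For Tgfb3 they were Scfd2, Stt3a and Mospd3 (0.82, 0.81 and 0.80). Smad2 and Smad4 both lie on chromosome 18, and the part of this in their r was not tested.

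The comparison named by the design is that of T cell high with T cell low clones. No TGF-beta ligand, receptor or Smad passed the threshold, an adjusted p under 0.05 by edgeR, with or without the heart-bearing libraries, where 0% of all genes did in either set, and the levels of high and low clones overlapped for every gene. Over all libraries Tgfb1 averaged 131 ± 36.6 CPM in 6 high clones and 137 ± 63.8 CPM in 9 low clones (SD). In heart-free libraries the lowest, median and highest Tgfb1 levels were 113, 152 and 280 CPM in 6 high clones and 48.5, 150 and 264 CPM in 8 low clones. The medians were thus alike, and the log2 fold change was 0.25 ± 0.32 (standard error) with an adjusted p of 0.753 by edgeR's quasi-likelihood test.

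Tgfb2 levels in heart-free libraries were 2.48, 3.37 and 15.5 CPM (lowest, median and highest) in high clones and 1.32, 4.34 and 22.9 CPM in low clones, a log2 fold change of -0.59 ± 0.69 (adjusted p = 0.731, edgeR). Without yfp_6555c3 it was -1.30 (adjusted p = 0.580, edgeR), and over the clones left out in turn it ran from -1.30 to -0.16. Tgfb3 levels were 38.4, 43.7 and 65.4 CPM in high clones and 28.6, 64.7 and 131 CPM in low clones, a log2 fold change of -0.51 ± 0.30 (adjusted p = 0.457, edgeR). For Tgfb3 the 6 high clones lay inside the range of the low clones.

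Tgfbr1 had 50.9, 69.1 and 173 CPM in high clones and 50.4, 105 and 189 CPM in low clones, with a log2 fold change of -0.36 ± 0.35 (adjusted p = 0.673, edgeR). Tgfbr2 had 64.9, 131 and 165 CPM in high clones and 67.6, 103 and 151 CPM in low clones, with a log2 fold change of 0.29 ± 0.22 (adjusted p = 0.576, edgeR). The type II receptor thus had a higher median, and the type I receptor a lower one, in high clones, each by less than the spread between clones. Tgfbr3 had 0.240, 1.27 and 21.4 CPM in high clones and 0.403, 2.01 and 6.75 CPM in low clones. Its log2 fold change of 0.78 ± 0.92 (adjusted p = 0.733, edgeR) rested on yfp_6555c3: without that clone it was -1.32 (adjusted p = 0.585, edgeR).

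The Smads were as evenly spread. Smad3 had 172, 212 and 457 CPM in high clones and 109, 182 and 386 CPM in low clones, with a log2 fold change of 0.31 ± 0.30 (adjusted p = 0.663, edgeR). Smad7 had 66.9, 103 and 168 CPM in high clones and 65.8, 95.9 and 192 CPM in low clones, with a log2 fold change of -0.0073 ± 0.25 (adjusted p = 0.994, edgeR). For Smad2 the log2 fold change was -0.17 ± 0.13 and for Smad4 -0.15 ± 0.13 in heart-free libraries, where Smad2 averaged 69.3 ± 9.46 CPM in high and 78.5 ± 14.6 CPM in low clones and Smad4 145 ± 26.1 CPM in high and 161 ± 26.9 CPM in low clones. Over all libraries the unadjusted p of Smad2 was 0.0499 (log2 fold change -0.23 ± 0.11, adjusted p = 0.426, edgeR), the only one of the 10 genes under 0.05.

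The table as a whole gave no calls either. Over all libraries edgeR called 0% of 18551 genes and 0 of 10 members, and in heart-free libraries 0% of 15635 genes and 0 of 10 members. At an unadjusted p under 0.05 stood 2176 genes (11.7%) and 1 member over all libraries, and 2095 genes (13.4%) and 0 members in heart-free libraries. DESeq2 called 79 genes higher and 42 lower over all libraries and 180 higher and 119 lower in heart-free libraries, none of them a member, and limma called none in either set. The median log2 fold change of the 10 genes was -0.14 over all libraries and -0.077 in heart-free ones, against -0.013 and -0.0023 over all genes tested.

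Heart transcripts summed to 2553 to 4872 CPM in the 6 heart-bearing libraries of high clones and 152 to 4893 CPM in the 9 of low clones. On TMM-scaled CPM their median was 4447 CPM in high and 1913 CPM in low clones, so heart content was not balanced between the classes. The log2 fold changes that follow are not adjusted for it. Tgfbr3 averaged 18.6 ± 6.27 CPM in high and 11.2 ± 5.61 CPM in low clones over all libraries (log2 fold change 0.69 ± 0.39, adjusted p = 0.477, edgeR). Within heart-bearing libraries alone the log2 fold changes were -0.54 for Tgfb1, 0.43 for Tgfb2, 0.65 for Tgfbr3 and -0.32 for Smad3, with adjusted p of 0.474, 0.479, 0.486 and 0.552 by edgeR. The test of whether the difference between classes itself differed between the kinds of library called 0 of 18010 genes, and the smallest adjusted p among the 10 genes was 0.704 for Tgfb3 (edgeR). It took libraries as replicates without a clone term, so its p-values do not measure the spread between clones.

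The genes around the core were as little separated by class. Of 12 genes that store or activate latent TGF-beta, 10 other receptors, 4 other Smads, 14 inhibitors, 6 measured coactivators, 17 measured target genes and 7 measured related ligands, edgeR called none over all libraries. In heart-free libraries, where 12, 9, 3, 14, 6, 17 and 6 of them were tested, it called none either. The smallest adjusted p in these lists were 0.258 for Acvrl1 (log2 fold change 1.47), a type I receptor of endothelial cells, 0.259 for the ubiquitin ligase Smurf1 (-0.45) and 0.262 for Trim33 (-0.42), a Smad4 regulator, which were picked after their values were seen. The 6 endothelial markers had a median log2 fold change of 1.33 in the same comparison, with none called. The high clone yfp_6555c3 stood apart in these markers, and no Acvrl1 value without it is given. The median log2 fold change in heart-free libraries was 0.11 for the target genes, -0.23 for the genes of latent TGF-beta and -0.29 for the coactivators.

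Intermediate clones did not stand apart either. In one fit of 17 clones edgeR called 1 gene (0.00499% of 20028) between intermediate and low clones and 0% between intermediate and high clones, and 0 members in either. At an unadjusted p under 0.05 stood 1009 and 414 genes and 0 members in both. DESeq2 called 8 genes higher and 5 lower against low clones and none against high clones, again without a member. Tgfb1 had 364 CPM in yfp_6422c5 and 162 CPM in yfp_7160c5 in heart-free libraries, above the medians of 152 CPM in high and 150 CPM in low clones. Its log2 fold change over all libraries was 0.58 ± 0.40 against low clones (adjusted p = 0.997, edgeR) and 0.71 ± 0.42 against high clones (adjusted p = 1, edgeR). The 2 clones also differed from each other: Tgfbr2 had 81.2 CPM in yfp_6422c5 and 186 CPM in yfp_7160c5, Tgfb3 had 94.2 CPM in yfp_6422c5 and 42.5 CPM in yfp_7160c5, and Smad3 365 CPM in yfp_6422c5 and 268 CPM in yfp_7160c5. Both contrasts use the same intermediate clones, so their values are not independent.

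The parent lines of yfp_6499c4 and yfp_6556c4 each gave a high and a low clone. In heart-free libraries Tgfb1 had 137 CPM in the high clone yfp_6499c4 and 78.9 CPM in the low clone yfp_6499c3, and 280 CPM in the high clone yfp_6556c4 and 127 CPM in the low clone yfp_6556c3. Smad3 had 204 CPM in yfp_6499c4 and 132 CPM in yfp_6499c3, and 457 CPM in yfp_6556c4 and 300 CPM in yfp_6556c3. Both genes were thus higher in the high sister of each line there. So was Tgfb2, with 3.52 CPM in yfp_6499c4 and 2.57 CPM in yfp_6499c3, and 3.23 CPM in yfp_6556c4 and 2.36 CPM in yfp_6556c3. Tgfb3, Tgfbr2, Smad2 and Smad4 were lower in the high sister of each line, and Tgfbr1, Tgfbr3 and Smad7 differed in direction between lines. No clone here had a further heart-free library. The share of all genes alike in direction in both lines was not counted. In the heart-bearing libraries the order of Tgfb1 and Smad3 was the other way in the sisters yfp_6556c4 and yfp_6556c3. Tgfb1 had 76.5 CPM in yfp_6556c4 and 148 CPM in yfp_6556c3, and Smad3 had 145 CPM in yfp_6556c4 and 221 CPM in yfp_6556c3. In the other line Tgfb1 had 72.2 CPM in yfp_6499c4 and 114 CPM in yfp_6499c3, and Smad3 had 151 CPM in yfp_6499c4 and 148 CPM in yfp_6499c3. Heart transcripts in these libraries stood at 4718 CPM in yfp_6499c4 and 152 CPM in yfp_6499c3, and at 4747 CPM in yfp_6556c4 and 568.3 CPM in yfp_6556c3.

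Over the 8 libraries of both lines, with the line as a block, edgeR called 0% of 16879 genes and 0 of 10 members; 1516 genes and 0 members had an unadjusted p under 0.05, and DESeq2 called 298 genes higher and 187 lower but no member. The members nearest to the threshold were Smad2 (log2 fold change -0.33 ± 0.15, adjusted p = 0.566, edgeR), Tgfb2 (1.18 ± 0.55, adjusted p = 0.570, edgeR) and Smad4 (-0.30 ± 0.14, adjusted p = 0.572, edgeR). This fit held both kinds of library and was not adjusted for heart transcripts, which were higher in the high sisters. The Tgfb2 difference between sisters was larger in heart-bearing than in heart-free libraries of both lines. The log2 ratio of heart-bearing to heart-free Tgfb2 was 1.77 in yfp_6499c4 and 0.175 in yfp_6499c3. It was 1.61 in yfp_6556c4 and 1.08 in yfp_6556c3. The part of heart content in the Tgfb2 fold change was not tested. Tgfbr1 in heart-free libraries had 55.5 CPM in yfp_6499c4 and 122 CPM in yfp_6499c3, but 173 CPM in yfp_6556c4 and 160 CPM in yfp_6556c3. Whether the difference between sisters itself differed between the lines was tested for all genes, and 0 of 17774 were called.

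**Figure D2:**
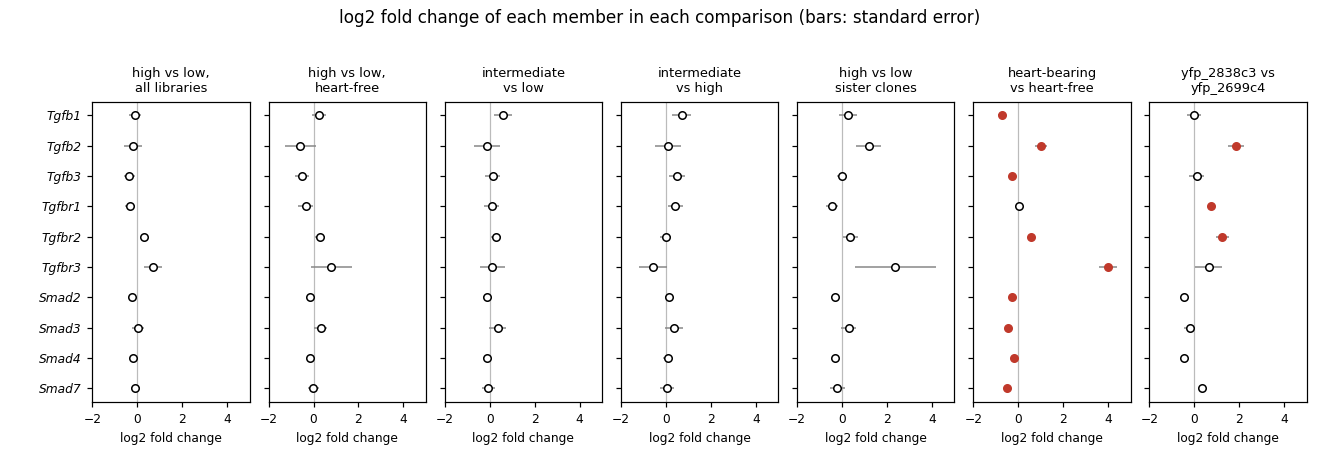
log2 fold change of each gene (first-named group over the second, error bars are standard errors) in each comparison; filled red points have an adjusted p under 0.05 by edgeR. Filled points appear only in the last 2 panels, with 9 genes between heart-bearing and heart-free libraries and 3 between clones yfp_2838c3 and yfp_2699c4.

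The high clone yfp_2838c3 and the low clone yfp_2699c4 had the most libraries, of which 3 (tumours 2, 3 and 4) and 2 (tumours 3 and 4) were heart-free. Between these libraries Tgfb2 and both signalling receptors were higher in yfp_2838c3. Tgfb2 had 5.25, 4.63 and 4.72 CPM in yfp_2838c3 and 1.13 and 1.53 CPM in yfp_2699c4. Tgfbr1 had 95.8, 104 and 106 CPM in yfp_2838c3 and 60.8 and 57.9 CPM in yfp_2699c4. Tgfbr2 had 122, 136 and 224 CPM in yfp_2838c3 and 68.0 and 67.0 CPM in yfp_2699c4. For none of these genes did the libraries of the clones overlap. The share of all genes without overlap was not counted, so this is description only. The log2 fold change was 1.84 ± 0.34 for Tgfb2 (adjusted p = 0.0212), 0.76 ± 0.12 for Tgfbr1 (adjusted p = 0.0143) and 1.23 ± 0.29 for Tgfbr2 (adjusted p = 0.0372), by edgeR.

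These 3 of 10 members compare with 18.2% of 15782 genes called between the same libraries, 9.08% of them higher and 9.17% lower in yfp_2838c3. Tgfb1 had 216, 114 and 115 CPM in yfp_2838c3 and 155 and 146 CPM in yfp_2699c4, overlapping ranges with a log2 fold change of -0.040 ± 0.31. Smad2 had 76.6, 67.8 and 58.0 CPM in yfp_2838c3 and 92.4 and 90.7 CPM in yfp_2699c4, and Smad4 had 161, 154 and 121 CPM in yfp_2838c3 and 201 and 189 CPM in yfp_2699c4. Their ranges did not overlap, but the log2 fold changes of -0.46 ± 0.15 and -0.45 ± 0.16 had adjusted p of 0.0878 and 0.113 (edgeR). Smad7 had 116, 130 and 101 CPM in yfp_2838c3 and 96.2 and 83.5 CPM in yfp_2699c4, also without overlap (log2 fold change 0.34 ± 0.15, adjusted p = 0.173, edgeR). For Smad2, Smad4 and Smad7 too this is description only, as the share of all genes without overlap was not counted. Of all genes tested 35.2% had an unadjusted p under 0.05 by edgeR between these libraries. The remaining Tgfb3, Tgfbr3 and Smad3 had overlapping libraries and adjusted p of 0.851, 0.485 and 0.591 (edgeR).

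Leaving out either library of yfp_2699c4, which leaves 1 that is assumed to vary like the others, ended all 3 calls, and leaving out tumour 3 of yfp_2838c3 ended that of Tgfbr2 (adjusted p = 0.0598, edgeR). One high and one low clone were compared, so the p-values measure only the spread between their libraries and clone and class cannot be told apart. Tumour 4 of yfp_2838c3, which had the highest Tgfbr2 level, also had the highest sum of the macrophage markers C1qa, C1qb, C1qc, Csf1r, Lyz2 and Mrc1, at 2847 CPM against 236 and 297 CPM in its other tumours and 245 and 423 CPM in yfp_2699c4. Liver transcripts summed to 11.6, 16.2 and 35.8 CPM in yfp_2838c3 and 0.872 and 0.737 CPM in yfp_2699c4, and Alb, the 1 of the 6 liver markers that was tested, was called higher (log2 fold change 4.79, adjusted p = 0.0113, edgeR). Fibroblast markers summed to 583, 108 and 527 CPM in yfp_2838c3 and 309.7 and 1110.1 CPM in yfp_2699c4, with 7 of 8 at a log2 fold change below 0 and none called. The part of such transcripts in the difference was not tested.

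**Figure D3:**
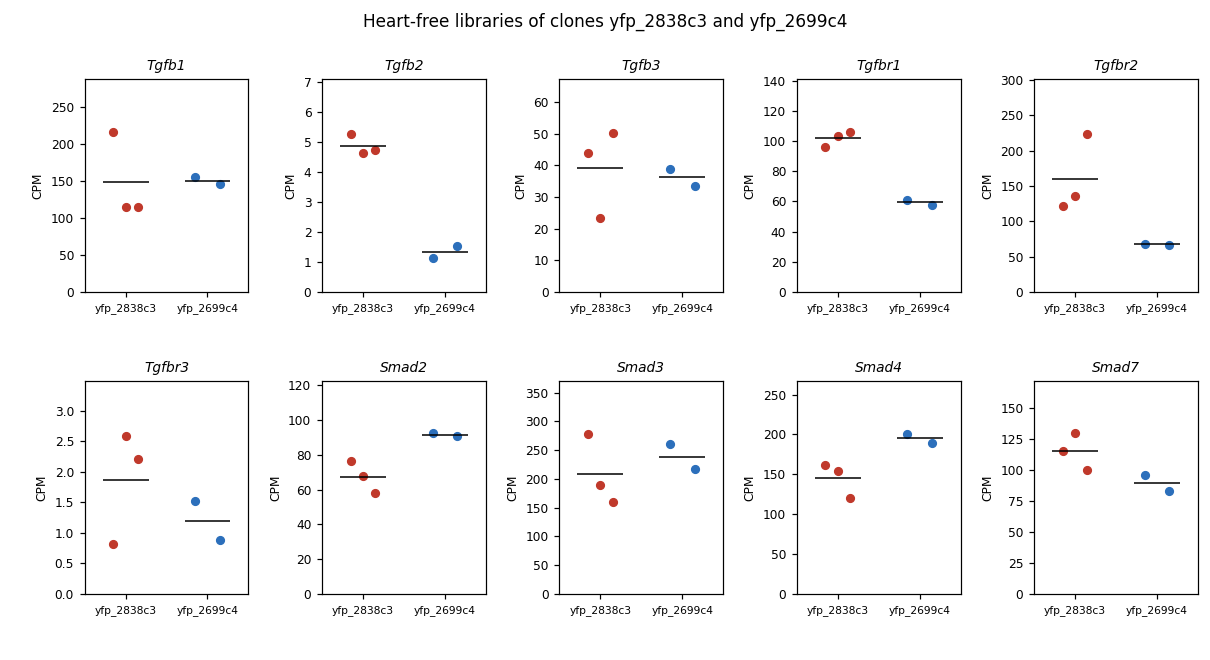
Level of each gene (CPM, axes from 0) in the heart-free libraries of the high clone yfp_2838c3 (3 points) and the low clone yfp_2699c4 (2 points); horizontal lines are means. Tgfb2, Tgfbr1 and Tgfbr2 lie higher in every library of yfp_2838c3. Smad7 also lies higher, and Smad2 and Smad4 lie lower, without passing the test. The share of all genes without overlap was not counted.

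Other genes of the pathway were called between these clones, each list to be read against the 18.2% of all genes called there. Leaving out tumour 3 or tumour 4 of yfp_2699c4 leaves 44 genes higher and 31 lower, or 23 higher and 28 lower, over the whole table. Of 12 genes of latent TGF-beta 4 were called, all higher in yfp_2838c3: Ltbp1 (log2 fold change 1.64 ± 0.28), Ltbp3 (0.90 ± 0.20) and Ltbp4 (1.21 ± 0.26), which anchor latent ligand in the matrix, and the integrin subunit Itgb6, which with Itgav releases active ligand. Itgb6 had 3.89, 9.26 and 10.05 CPM in yfp_2838c3 and 0.141 and 0.118 CPM in yfp_2699c4. These rest on 100, 372 and 383 counts in yfp_2838c3 and 5 and 4 counts in yfp_2699c4, so the gene passed the filter on low counts only through yfp_2838c3 and had to differ, and no fold is given. Of 9 other receptors tested 2 were called, both higher: Acvr1b, the activin type I receptor (0.83 ± 0.16), and Bmpr1a, a type I receptor for bone morphogenetic proteins (0.63 ± 0.15). Of 17 target genes 2 were higher, Ctgf (2.20 ± 0.15), which encodes a matricellular protein, and Pmepa1 (0.88 ± 0.17), a feedback inhibitor, and 1 was lower, Snai2 (-2.08 ± 0.46), a transcription factor of epithelial-mesenchymal transition.

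Among 14 inhibitors, where 3 calls are a share near that of all genes, Pmepa1 was higher and 2 were lower: Smurf2 (-0.92 ± 0.12), a ubiquitin ligase for receptors and Smads, and Ppm1a (-1.08 ± 0.18), a phosphatase of Smads. Smurf2 had 53.5, 54.2 and 51.2 CPM in yfp_2838c3 and 105 and 92.9 CPM in yfp_2699c4. Of 7 related ligands tested Bmp2 (1.15 ± 0.29), Bmp4 (2.92 ± 0.64) and Bmp7 were higher and Gdf15 (-2.03 ± 0.44) was lower. Bmp7 had 56, 42 and 32 counts in yfp_2838c3 and 0 counts in both libraries of yfp_2699c4. It too passed the filter only through yfp_2838c3, so its call was set by the filter and no fold is given. The coactivator Crebbp was lower (-0.54 ± 0.13), and none of the 3 other Smads tested was called.

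Heart-bearing and heart-free libraries of the same clones differed widely in these genes. Over 34 libraries of the 15 clones with both kinds, with the clone as a block, 3 members were higher in heart-bearing libraries (Tgfbr3, Tgfb2 and Tgfbr2), 6 were lower (Tgfb1, Smad7, Smad3, Tgfb3, Smad2 and Smad4) and Tgfbr1 was not called. This split of the libraries rests on the heart transcripts and is not one of the study's groups, and its origin was not tested. Of 19533 genes 59.2% were called, 31.8% higher and 27.3% lower. A count of 9 in 10 members is therefore set against a majority of all genes. The median log2 fold change was -0.23 over the 10 members and 0.033 over all genes tested.

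Tgfbr3 had 1.60, 30.4 and 38.9 CPM (lowest, median and highest clone) in heart-bearing libraries and 0.240, 1.26 and 21.4 CPM in heart-free libraries, and was higher in heart-bearing libraries in 15 of 15 clones. Its log2 fold change was 3.99 ± 0.39 (adjusted p = 3.1e-08, edgeR), the largest of the members. Tgfb2 had 2.90, 9.37 and 12.5 CPM in heart-bearing and 1.32, 3.52 and 16.1 CPM in heart-free libraries, was higher in 12 of 15 clones, and had a log2 fold change of 1.02 ± 0.26 (adjusted p = 0.0021, edgeR). The exceptions were yfp_6555c3, yfp_6419c5 and yfp_6419c1, which were among the 4 clones above 10 CPM in heart-free libraries. Tgfbr2 had 108, 181 and 225 CPM in heart-bearing and 64.9, 114 and 186 CPM in heart-free libraries, was higher in 14 of 15 clones, and had a log2 fold change of 0.59 ± 0.12 (adjusted p = 0.00022, edgeR).

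Of the lower members, Smad7 had 56.7, 65.5 and 157 CPM in heart-bearing and 65.8, 102 and 192 CPM in heart-free libraries and was lower in 15 of 15 clones (log2 fold change -0.52 ± 0.084, adjusted p = 2.2e-05, edgeR). Tgfb1 had 68.5, 84.8 and 271 CPM in heart-bearing and 48.5, 151 and 364 CPM in heart-free libraries and was lower in 11 of 15 clones (-0.74 ± 0.18, adjusted p = 0.00154, edgeR). Smad3 had 117, 150 and 445 CPM in heart-bearing and 109, 221 and 457 CPM in heart-free libraries and was lower in 12 of 15 clones (-0.46 ± 0.12, adjusted p = 0.0022, edgeR). The changes of Smad2 (-0.27 ± 0.066, lower in 14 of 15 clones), Smad4 (-0.20 ± 0.064, lower in 12 of 15) and Tgfb3 (-0.30 ± 0.11, lower in 9 of 15) were smaller, with adjusted p of 0.0018, 0.0106 and 0.0278 (edgeR). The call of Tgfb3 was lost under DESeq2 size factors (log2 fold change -0.25, adjusted p = 0.074, edgeR) and when any of 10 libraries was left out, namely both tumours of yfp_6499c3, yfp_6419c1, yfp_6419c5 and yfp_6421c2 and tumour 1 of yfp_6555c3 and yfp_6422c5 (adjusted p up to 0.0714, edgeR). Tgfbr1 was higher in 8 and lower in 7 of 15 clones, with a log2 fold change of 0.029 ± 0.11.

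**Figure D4:**
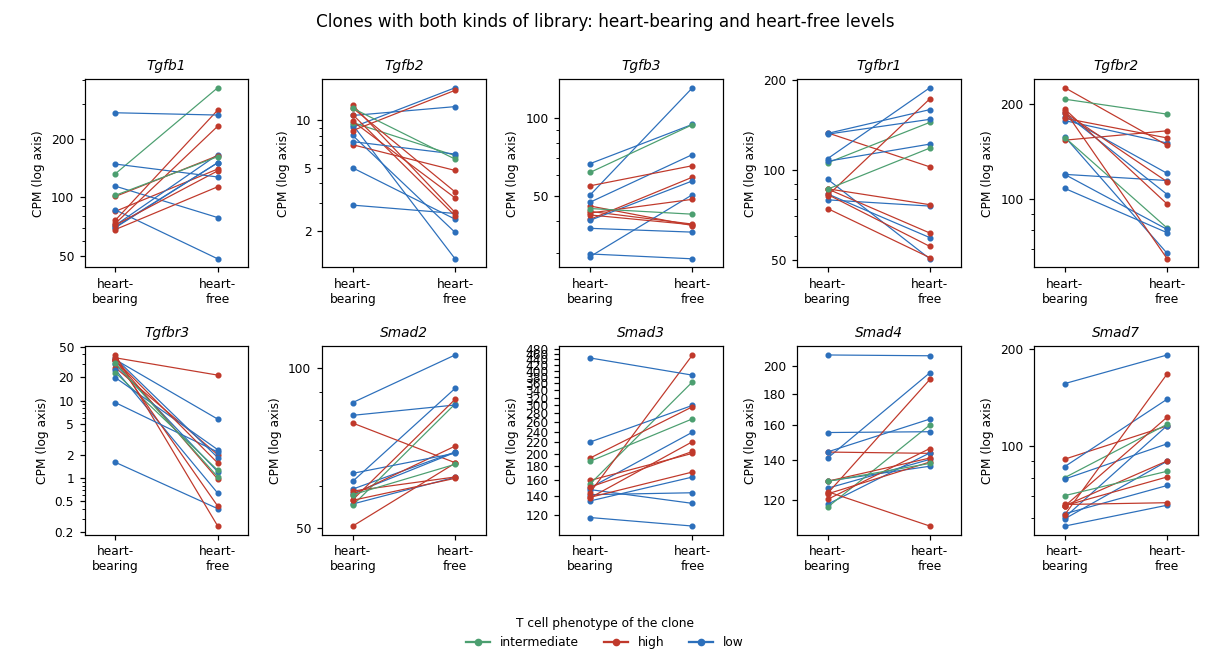
Level of each gene (CPM, log axis) in heart-bearing and heart-free libraries of the 15 clones with both, 1 line a clone, coloured by T cell phenotype. Tgfbr3 is higher in heart-bearing libraries in 15 of 15 clones and Smad7 lower in 15 of 15, and for most genes the clones lie closer together in heart-bearing libraries.

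The clones lay closer together in heart-bearing libraries. The SD of log2 CPM over the 15 clones was 0.54 in heart-bearing and 1.07 in heart-free libraries for Tgfb2. It was 0.29 in heart-bearing and 0.69 in heart-free libraries for Tgfbr1 and 0.33 in heart-bearing and 0.61 in heart-free libraries for Tgfb3. The median over all genes was 0.32 in heart-bearing and 0.44 in heart-free libraries. For Smad2, with 0.23 in heart-bearing and 0.24 in heart-free libraries, it was nearly equal. In the 7 libraries with 4000 CPM or more of heart transcripts, which came from 7 clones of both classes, Smad3 ran from 135 to 151 CPM, against 109 to 467 CPM in the 20 heart-free libraries. Tgfb1 likewise ran from 63.6 to 76.5 CPM there against 48.5 to 381 CPM in heart-free libraries, Smad7 from 58.3 to 66.1 CPM against 65.8 to 192 CPM in heart-free libraries, and Tgfbr3 from 33.6 to 38.9 CPM against 0.240 to 21.4 CPM in heart-free libraries. Libraries of these different clones were thus nearly alike in most of the 10 genes. The low clone yfp_6694c2, with 741 CPM of heart transcripts, had 271 CPM of Tgfb1 in its heart-bearing and 264 CPM in its heart-free library, and 445 CPM of Smad3 in the heart-bearing and 386 CPM in the heart-free library. Its Tgfbr3 level was 9.44 CPM in the heart-bearing and 2.17 CPM in the heart-free library, and its Tgfbr2 level 108 CPM in the heart-bearing and 78.5 CPM in the heart-free library.

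**Figure D5:**
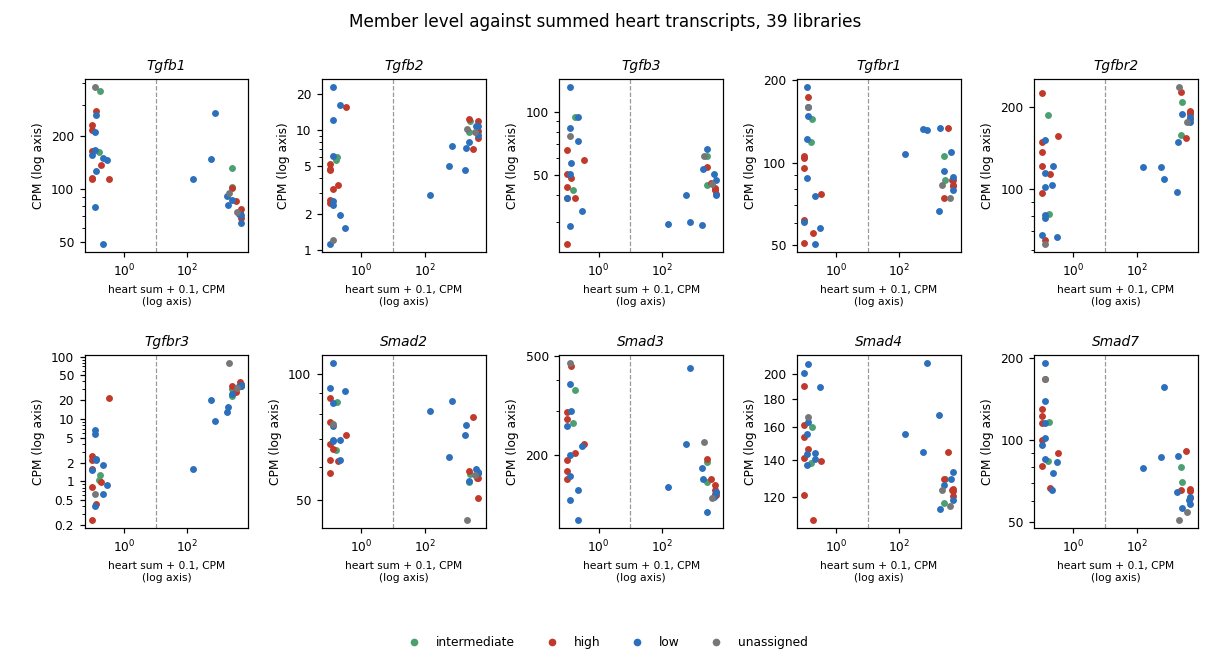
Level of each gene (CPM, log axis) against the summed heart transcripts of the library (CPM plus 0.1, log axis), 39 libraries coloured by class; the dashed line marks 10 CPM, below which a library is heart-free. Above 4000 CPM of heart transcripts Tgfbr3 lies at 33.6 to 38.9 CPM, and the points of Tgfb1 and Smad3 narrow to 63.6 to 76.5 and 135 to 151 CPM.

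Markers of other cell types were higher with the heart transcripts. All 8 fibroblast markers were detected in both kinds of library and summed to 868 to 9010 CPM (median 4265) in heart-bearing and 108 to 17915 CPM (median 600) in heart-free libraries. The 6 endothelial markers, all detected, summed to 29.7 to 248 CPM (median 199) in heart-bearing and 4.18 to 186 CPM (median 14.4) in heart-free libraries. Macrophage markers summed to 558 to 2278 CPM (median 1304) in heart-bearing and 87.7 to 3422 CPM (median 356) in heart-free libraries, and the T cell markers Cd3e, Cd3d, Cd3g, Cd2, Cd4 and Cd8a to 1.76 to 16.7 CPM in heart-bearing and 0.154 to 12.4 CPM in heart-free libraries. The part of heart, liver or these other transcripts in the levels of the 10 genes was not tested.

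Other genes of the pathway split in the same comparison, where 59.2% of all genes were called, 31.8% higher and 27.3% lower. Of 17 target genes 11 were higher and 3 lower in heart-bearing libraries, with a median log2 fold change of 0.98; Id3 (2.77 ± 0.29), a target chiefly of bone morphogenetic proteins, Tagln (2.39 ± 0.30), a smooth muscle gene, and Snai1 (2.10 ± 0.28) were among the higher and Junb (-0.95 ± 0.15) and Pmepa1 (-0.84 ± 0.15) among the lower. Of 10 other receptors 4 were higher, among them the endothelial coreceptor Eng (2.85 ± 0.26) and Acvrl1 (1.35 ± 0.27), and 4 lower, among them Bmpr2 (-0.55 ± 0.11). The genes of latent TGF-beta split into 4 higher, such as Lrrc32 (3.90 ± 0.34), which tethers latent ligand to the cell surface, and 6 lower, such as Ltbp4 (-1.06 ± 0.17) and Itgav (-0.74 ± 0.11). Among 14 inhibitors 3 were higher, with Dcn (4.90 ± 0.43), a matrix proteoglycan and fibroblast marker, far ahead of Bambi (1.46 ± 0.19), and 5 were lower. Of 4 other Smads Smad1 (-0.42 ± 0.074) and Smad6 (-0.39 ± 0.14) were lower. Smad9 was called higher but was near 0 in heart-free libraries, with a median of 2.05 CPM in heart-bearing and 0.027 CPM in heart-free libraries, where 2 of 18 reached the filter on low counts, so no fold is given. All these calls are by edgeR at an adjusted p under 0.05.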

How the data were processed

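Tumour cells were sorted from implanted tumours and their RNA was sequenced on an Illumina NextSeq, per the labels' protocols. Per the submitters' processing notes, the authors aligned reads to mm10 with STAR and counted them with featureCounts; their versions, the annotation and the strand setting were not given in the sources used here. The deposited table holds raw counts per gene as whole numbers for 39 libraries of 20 clones, and all its columns were matched to samples. Of 39017 gene identifiers 37607 were found in GENCODE M21 (GRCm38). Totals ran from 7638130 to 103794674 counts a library.

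Nothing in the labels ties the libraries of a clone to separate animals, so counts were summed per clone for comparisons of classes, and p-values there measure the spread between clone sums. Comparisons within lines, within clones and between clones yfp_2838c3 and yfp_2699c4 used libraries, whose spread may be technical. So did the test of whether class differences differ between kinds of library, which had no clone term. Genes passed filterByExpr, were scaled by TMM and went through glmQLFit and glmQLFTest of edgeR 4.0.16 in R 4.3.3 (a quasi-likelihood test), adjusted by Benjamini-Hochberg over all genes tested, with 0.05 as threshold; all 10 genes passed the filter in each comparison. DESeq2 1.42.0 and limma 3.58.1 (log2 CPM, prior count 2), other scaling, no filter, sums per parent line, blocks and leaving out each clone or library were alternatives. Standard errors are the log2 fold change over the root of its F statistic. The fits were run on simulated data with known fold changes.

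The heart-free set follows a limit of 10 CPM on the sum of Myh6, Myh7, Myl2 and Mb. CPM were scaled over all 39 libraries, and levels per kilobase use the union of annotated exons, whatever transcript is made. The 10 genes, the pathway and marker lists and the heart-free limit were chosen with earlier results of these data known. All 10 genes are named, of each pathway list those past a test and then those of highest level (genes of smallest p among the uncalled were picked after their values were seen), and for each gene the 3 with the highest r. The 3 clones without a class entered no comparison. Same-numbered libraries are not said to be paired in the labels. Promoters were read from RefSeq windows.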

Additional observations from a re-analysis of the deposited data

Results flagged for a closer look

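The 70 groups checked were, for each gene, the high or the low clones, or the 4 intermediate libraries of both kinds. The high and the low clones were each checked over all, over heart-free and over heart-bearing libraries. In 14 of them the highest or lowest clone stood apart from the nearest other by more than Dixon's limit. Chance flags about 1 group in 20 where values are normally distributed, and CPM were used without logs. Many of these groups share clones and libraries. The low clone yfp_6694c2 gave 6 of them. Over all libraries it had 422 CPM of Smad3 and 170 CPM of Smad7, with the next low clones at 254 and 109 CPM. In its heart-bearing library it had 271 CPM of Tgfb1, 445 CPM of Smad3, 209 CPM of Smad4 and 157 CPM of Smad7, with the next low clones at 148, 221, 155 and 87.6 CPM. The heart-bearing library of the high clone yfp_2838c3 was likewise highest, with 133 CPM of Tgfbr1, 78.8 CPM of Smad2, 144 CPM of Smad4 and 91.3 CPM of Smad7, and the next high clones stood at 86.6, 58.7, 129 and 66.1 CPM. The heart-free library of the high clone yfp_6555c3 had 15.5 CPM of Tgfb2 and 21.4 CPM of Tgfbr3, with the next high clones at 4.82 and 2.01 CPM. The heart-free library of the high clone yfp_6620c1 had 87.4 CPM of Smad2, with the next at 71.3 CPM, and the heart-bearing library of the high clone yfp_7160c2 had 54.7 CPM of Tgfb3, with the next at 45.7 CPM.

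Libraries without a class entered no comparison, and 2 of them held levels above every low library of their kind. The heart-free library of yfp_7062c3 had 381 CPM of Tgfb1 and 467 CPM of Smad3, with at most 264 and 386 CPM in low heart-free libraries. The heart-bearing library of yfp_6883c1 had 236 CPM of Tgfbr2 and 78.5 CPM of Tgfbr3, with at most 187 and 35.3 CPM in low heart-bearing libraries.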

How the results depend on the processing

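Each log2 fold change of the 10 genes was recomputed under the alternatives, which gave 350 values under another setting and 800 with 1 clone or library left out. Of the 350, 323 kept direction and side of the threshold, 5 lost the call and 22 reversed. Of the 800, 738 kept both, 17 lost the call and 45 reversed. All 67 reversed values lay short of the threshold, as did the values they are set against, and the cause was not tested.

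Reversed between high and low clones over all libraries were Tgfb1 (0.096) and Tgfb2 (0.13) with the heart sum as covariate, Tgfb2 by limma (0.064), with sums per parent line (0.24) and in heart-bearing libraries (0.43), Tgfb3 in heart-bearing libraries (0.0091), and Smad3 with no filter (-0.013), with sums per parent line (-0.050), in heart-bearing libraries (-0.32) and by library with the heart covariate (-0.023). In heart-free libraries these were Tgfb2 with sums per parent line (0.039) and, by limma, Tgfbr3 (-0.35) and Smad7 (0.0072). Between intermediate and low clones these were Tgfb3 (-0.0073) and Tgfbr3 (-1.18) in heart-free libraries. Between intermediate and high clones these were Tgfbr2 under DESeq2 scaling (-0.011) and test (-0.011) and Smad7 in heart-free libraries (-0.088). Without the clone block Tgfbr1 was -0.040 in heart-bearing against heart-free libraries.

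For the genes that reversed, leaving out 1 clone at a time gave, between high and low clones over all libraries, -0.24 to 0.064 for Tgfb1, -0.37 to 0.14 for Tgfb2, -0.14 to 0.23 for Smad3 and -0.20 to 0.051 for Smad7. In heart-free libraries the range was -1.32 to 1.15 for Tgfbr3 and -0.19 to 0.16 for Smad7, and without reversing it moved widely for Tgfb1 (0.067 to 0.42), Tgfb2 (-1.30 to -0.16), Smad3 (0.062 to 0.50) and Tgfbr1 (-0.69 to -0.20). Between intermediate and low clones it was -0.068 to 1.05 for Tgfb1, -0.22 to 0.024 for Tgfb2, -0.41 to 0.54 for Tgfb3, -0.10 to 0.27 for Tgfbr1, -0.20 to 0.65 for Tgfbr2, -0.32 to 0.46 for Tgfbr3, -0.27 to 0.034 for Smad2 and -0.29 to 0.16 for Smad7. Between intermediate and high clones it was -0.013 to 0.23 for Tgfb2, -0.042 to 0.91 for Tgfb3, -0.47 to 0.37 for Tgfbr2, -0.016 to 0.29 for Smad2 and -0.18 to 0.28 for Smad7. Leaving out 1 library gave, between high and low sisters, -0.25 to 0.51 for Tgfb1, -0.18 to 0.15 for Tgfb3, -0.0062 to 0.58 for Tgfbr2 and -0.11 to 0.54 for Smad3, between yfp_2838c3 and yfp_2699c4 -0.41 to 0.13 for Tgfb1 and -0.11 to 0.37 for Tgfb3, and between heart-bearing and heart-free libraries -0.022 to 0.10 for Tgfbr1.

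The members called stayed at 0 in every comparison of classes and of sisters under every alternative run. Between yfp_2838c3 and yfp_2699c4 they ran from 0 to 3 as 1 library was left out and stayed at 3 under the other alternatives. Between heart-bearing and heart-free libraries they ran from 8 to 9 as 1 library was left out, and were 8 under DESeq2 scaling and under DESeq2 (Tgfb3 lost, -0.25) and 6 without the clone block (Tgfb3, -0.29, Smad3, -0.41, and Smad4, -0.14, lost).

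Counts over all genes moved more. High against low clones gave 0 calls by edgeR, but 12 higher and 4 lower without yfp_2838c3, 74 higher and 89 lower by library with the heart covariate, and in heart-free libraries 19 higher and 18 lower without yfp_2838c3. Intermediate against low gave 98 higher and 1 lower without yfp_6422c5. Between yfp_2838c3 and yfp_2699c4 DESeq2 called 2373 higher and 2109 lower, and edgeR 44 higher and 31 lower without tumour 3 and 23 higher and 28 lower without tumour 4 of yfp_2699c4. Heart-bearing against heart-free libraries gave 4021 higher and 3915 lower without the clone block.

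With tumour number as a replicate block, Tgfb2 was 0.066 between high and low clones, Tgfb3 0.019 between high and low sisters and -0.078 between yfp_2838c3 and yfp_2699c4, all reversed, and no member call changed. The block gave 8 genes higher and 5 lower between high and low clones by library. The labels do not say that equal numbers pair samples; deviations of the 4 tumour 1 libraries of the sisters correlated at 0.29 to 0.66, and their heart transcripts also go with that number.

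Depth limits Tgfbr3 and Tgfb2 most, whose levels fall to 0.240 and 1.22 CPM in heart-free clones.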
